A study of Homo sapiens with 12 samples.

Results

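HMC-1.1 and HMC-1.2 are sublines of HMC-1, a human mast cell line established from mast cell leukaemia. HMC-1.1 cells carry V560G-KIT, a change in the juxtamembrane region of the receptor, whereas HMC-1.2 cells carry the same change together with D816V-KIT, which lies in the kinase domain. The comparison described here took every gene measured in the 3 libraries of HMC-1.1 and the 3 libraries of HMC-1.2, which are 6 of the 12 libraries of the series. The other 6 libraries came from HMC-1.3 clone 1 and HMC-1.3 clone 2 (3 libraries each), made from HMC-1.2 by CRISPR/Cas9 so that D816V-KIT remained alone. Their values are given only to place the levels of the unedited sublines. All cells were grown without treatment in the same medium with serum, and polyadenylated RNA was sequenced from wells plated in triplicate. The p-values therefore cover the spread between the wells of a subline, and each subline stands for 1 culture history. Because the sublines had been kept apart, a difference in KIT genotype and any other difference between them cannot be told apart, and the genotype could not be read from tables of gene values.

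KIT is the receptor for stem cell factor, the growth and survival factor of mast cells. The active receptor signals through PI3K and AKT, through RAS and ERK, and through JAK2 and STAT5, and each change at KIT carried by these cells makes the kinase active without its ligand. Mast cells store histamine, heparin and proteases such as tryptase in granules, release them when IgE bound to its high-affinity receptor is cross-linked, and make leukotrienes, prostaglandins, cytokines and chemokines.

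The coding sequence around the KIT codons that define the sublines is shown to place these changes, as the reference sequence (GRCh38, plus strand, Gencode 44) with the codon named by the change in capitals. Codon 560 lies in exon 11, at chr4:54727446-54727448, and codon 816 lies in exon 17, at chr4:54733154-54733156.
KIT exon 11, chr4:54727425-54727469: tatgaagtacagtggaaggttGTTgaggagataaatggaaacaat
KIT exon 17, chr4:54733133-54733177: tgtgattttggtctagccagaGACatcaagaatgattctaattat
The capitals GTT code for valine, which V560G replaces with glycine, and GAC for aspartate, which D816V replaces with valine. HMC-1.1 cells carry the exon 11 change alone and HMC-1.2 cells carry both.

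Expected counts per library, the RSEM estimate of the fragments from each gene, summed to between 36120882 and 38098951 in HMC-1.1 and between 29225900 and 36794166 in HMC-1.2, and no library of these groups was a repeat of another within sampling noise. HMC-1.2 replicate 1 is marked in the labels as resent. Of the mast cell markers, KIT, HDC, GATA2, MITF and both tryptase genes were expressed in all 6 libraries, whereas the chymase gene CMA1 and the IgE receptor chains FCER1A and MS4A2 were at most 1.27 FPKM in any library (FPKM is a measure of level that takes the length of the transcript and the depth of the library into account). Of 26 markers of other lineages, 18 were too low to test in these cells. The edited clones, although made from HMC-1.2, differed from it in more genes than from HMC-1.1. Clone 1 differed from HMC-1.1 in 161 of 15944 genes (1.01%) and from HMC-1.2 in 3193 (20%), and clone 2 differed from HMC-1.1 in 1306 (8.19%) and from HMC-1.2 in 2630 (16.5%). These comparisons share libraries, and the excess was not tested.

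HMC-1.1 and HMC-1.2 differed in 2803 of the 15944 genes tested (17.6%), in edgeR's quasi-likelihood test, where a call needed more than a 1.5-fold difference together with a Benjamini-Hochberg adjusted p below 0.05. Of these, 1604 were higher in HMC-1.1 (10.1% of the genes tested) and 1199 were lower (7.52%). Of 582 genes that differed over 4-fold, 346 were lower and 236 higher. The adjusted p alone was under 0.05 for 8562 genes, and the replicate values in CPM (counts scaled to library size) did not overlap between the sublines for 9546 genes (59.9%), so that small differences between these cultures were common. The share of genes called was 36.3% of 2315 genes at 1 to 5 CPM in the higher group and 22.5% of 2761 at 5 to 20 CPM. It was 9.41% of 5780 genes at 20 to 100 CPM and 9.93% of 2559 genes at 100 CPM or more. Genes with a mean under 1 CPM in both groups are not in these shares. In what follows, rose, fell, higher and lower describe HMC-1.1 relative to HMC-1.2, fold changes are log2 values of HMC-1.1 over HMC-1.2 with their standard errors, and the 3 values of a group are its replicates. The median log2 fold change of all genes tested was 0.01. In bulk RNA, fewer cells expressing a gene and less RNA per cell cannot be told apart.

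**Figure D1:**
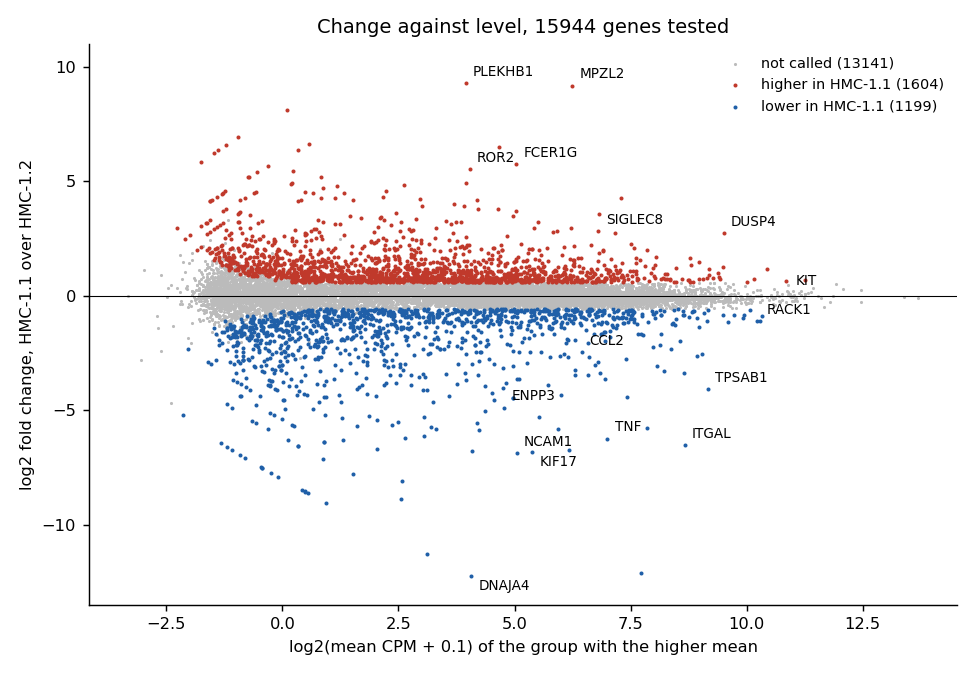
Log2 fold change of HMC-1.1 over HMC-1.2 (vertical axis) against the log2 of the mean CPM plus 0.1 in the group with the higher mean (horizontal axis) for the 15944 genes tested, with the 1604 genes called higher in red and the 1199 called lower in blue. KIT lies close to 0, and fitted values of genes with almost no counts in a group, such as DNAJA4, depend on the fit and are no measure of the true fold.

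KIT itself did not pass the fold threshold. Its FPKM was 419, 418 and 405 in HMC-1.1 and 363, 346 and 358 in HMC-1.2, a log2 fold change of 0.17 ± 0.03 (adjusted p = 0.0001). The groups did not overlap, but the difference was a 1.13-fold one, in a gene with high expression in all libraries. Of 15 tested genes for KIT adaptors and regulators, 1 rose and 0 fell (6.67% called, beside 17.6% of all genes), with a median of -0.01. The gene that rose was GAB1, a docking protein for PI3K and SHP2, at 2.23, 2.39 and 1.52 FPKM against 1.08, 0.59 and 0.63 (1.05 ± 0.14, adjusted p = 6.7e-06). PTPN6, the phosphatase SHP1, was at -0.33 ± 0.03 and LYN, a SRC family kinase, at 0.05 ± 0.03.

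Among STAT factors and STAT5 targets, 1 of 21 rose and 2 fell (14.3% called, beside 17.6% of all genes), with a median of -0.21. STAT5A was at 66.3, 68.3 and 64.8 FPKM in HMC-1.1 and at 98.2, 100 and 100 in HMC-1.2, without overlap, but its log2 fold change of -0.55 ± 0.03 (adjusted p = 4.4e-11) stayed under 1.5-fold. STAT5B had overlapping values, 75.1, 76 and 71.5 against 74.9, 71.8 and 75.1. The calls were IL2RA, the alpha chain of the IL-2 receptor or CD25, which fell from 66.7, 65.8 and 66.1 to 36.1, 35 and 39.7 FPKM (-0.95 ± 0.05, adjusted p = 1.5e-11), SOCS3, a feedback inhibitor of JAK (-0.77 ± 0.10, adjusted p = 6.9e-06), and STAT4 at under 1 FPKM. The STAT4 rise (0.66 ± 0.26, adjusted p = 0.038) was not called by DESeq2 or when any of 4 libraries was left out, where it was between 0.56 and 0.64. The serine kinases PIM1 and PIM2 were at -0.20 ± 0.03 and -0.34 ± 0.05.

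The ERK feedback genes did not move together. Of 16 tested, 1 rose and 2 fell (18.8% called, beside 17.6% of all genes), and the median was 0.10. DUSP4, a nuclear phosphatase of ERK, rose most, at 140, 139 and 135 FPKM against 19.7, 19.9 and 20.7 (2.74 ± 0.03, adjusted p = 5.6e-20). DUSP6, the cytoplasmic ERK phosphatase, was at 169, 165 and 169 FPKM against 169, 169 and 168 (-0.07 ± 0.03). The genes that fell were CCND1, cyclin D1, at 1.29, 1.54 and 1.21 against 9.7, 9.93 and 11.2 FPKM (-2.93 ± 0.09, adjusted p = 3.8e-14), and SPRY2, an inhibitor of RAS signalling (-1.53 ± 0.14, adjusted p = 1.3e-07).

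Immediate early genes, which are transcribed within minutes of a growth signal, fell in 6 of 18 cases and rose in 0, with a median of -0.43 beside 7.52% of all genes lower. EGR1 was at 19, 20.5 and 19.6 FPKM against 45.1, 47.7 and 46.5 (-1.28 ± 0.04, adjusted p = 2.8e-14), and FOS at 12.8, 15.1 and 15.6 against 20.4, 24.7 and 25.1 (-0.71 ± 0.07, adjusted p = 2.5e-07). FOSL2 (-1.302 ± 0.11), EGR3 (-1.70 ± 0.21), EGR4 (-0.71 ± 0.19) and KLF4 (-0.73 ± 0.23) fell at FPKM levels near or under 2. KLF4 was not called without HMC-1.2 replicate 3 (-0.66, adjusted p = 0.055), and the number of these genes called lower ran from 3 to 8 across the alternatives. Not all members moved this way, since NR4A1, an orphan nuclear receptor, was at 0.36 ± 0.05.

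In the PI3K list, 3 of 19 genes rose and 1 fell (21.1% called, beside 17.6% of all genes), with a median of -0.07. INPP5D, the lipid phosphatase SHIP1 that removes the product of PI3K, had 24.8, 27 and 25 FPKM in HMC-1.1 and 132, 127 and 127 in HMC-1.2 (-2.55 ± 0.03, adjusted p = 1.1e-19). Those that rose included INPP4B, a further lipid phosphatase (0.69 ± 0.06), and PIK3R2, a regulatory subunit (0.69 ± 0.17, adjusted p = 0.0021). PIK3R2 fell under 1.5-fold without HMC-1.1 replicate 3 (0.49) or HMC-1.2 replicate 3 (0.58). INPP4B was not called in the alternatives that used FPKM or tested against the fold threshold. AKT1 and AKT2 were at -0.12 ± 0.03 and -0.14 ± 0.03. Of 14 NF-kappaB subunits and feedback genes, 0 rose and 1 fell (7.14% called), TRAF1 (-0.78 ± 0.14, adjusted p = 0.00017), and the median was -0.28.

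Genes for stored mast cell mediators fell in 8 of 17 cases tested and rose in 1, beside 7.52% of all genes lower and 10.1% higher, and their median was -0.46. TPSAB1, alpha and beta tryptase, was at 35.9, 37.6 and 38.2 FPKM in HMC-1.1 and at 607, 596 and 573 in HMC-1.2, a 16.8-fold difference (-4.07 ± 0.04, adjusted p = 5.6e-20). TPSB2, the neighbouring beta tryptase gene, was at 33.5, 37 and 34.8 against 95.5, 99.5 and 95 (-1.51 ± 0.04, adjusted p = 2.2e-14). These genes are nearly identical in sequence, so that the division of reads between them is uncertain, and both fell. TPSG1, the membrane-anchored gamma tryptase, was at 0.18, 0.14 and 0.21 FPKM against 19.2, 18.1 and 19.9 (-6.76 ± 0.20, adjusted p = 1.7e-14). CPA3, the mast cell carboxypeptidase, moved the other way, from 3.04, 3.14 and 3.75 to 6.86, 8.23 and 8.47 FPKM (1.2 ± 0.09, adjusted p = 3.5e-09).

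The genes of histamine synthesis and storage were both lower, to unequal degrees. HDC, which makes histamine, was at 814, 904 and 839 FPKM against 966, 1024 and 1037 (-0.25 ± 0.03), and was not called. SLC18A2, the transporter that loads histamine and other monoamines into granules, fell from 329, 318 and 331 to 154, 156 and 152 FPKM (-1.12 ± 0.03, adjusted p = 7.1e-15). NDST2, a sulphotransferase needed for heparin, fell (-1.04 ± 0.04, adjusted p = 8.5e-13), as did RAB27B, a GTPase of granule exocytosis (-0.66 ± 0.05). ADCYAP1, a neuropeptide gene, fell at low level (-1.25 ± 0.15, adjusted p = 3.2e-06).

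The IgE receptor and its proximal signalling genes moved in both directions, with 4 of 17 higher and 5 lower and a median of 0.02. The share called was 52.9%, beside 17.6% of all genes. FCER1G, the signalling gamma chain shared by Fc receptors, was at 92, 95.5 and 95.8 FPKM in HMC-1.1 and at 2.43, 1.21 and 1.14 in HMC-1.2 (5.74 ± 0.12, adjusted p = 2.1e-16). The ligand-binding chain FCER1A was near the lower limit in both and fell from 1.08, 1.27 and 0.91 to 0.17, 0.12 and 0.14 FPKM (-2.83 ± 0.35, adjusted p = 2.7e-06). Of the kinases, SYK (0.96 ± 0.03) and BTK (1.26 ± 0.03) rose, BTK from 139, 141 and 140 to 349, 347 and 348 FPKM, and PLCG2, a phospholipase that they activate, rose as well (0.78 ± 0.03).

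Of the adaptors of this pathway, LAT2 and GRAP2 fell. LAT2, a linker for activation also called NTAL, was at 0.56, 0.24 and 0.68 FPKM against 14.6, 14.9 and 16.6 (-5.02 ± 0.19, adjusted p = 7.4e-13). GRAP2, an adaptor that binds LAT and LCP2, was at 6.71, 4.58 and 6.36 against 63.5, 62.7 and 62.5 FPKM (-3.35 ± 0.05, adjusted p = 1.5e-18). In contrast, LAT had 1107, 1077 and 1160 FPKM against 922, 942 and 938 (0.24 ± 0.03), and LCP2 was at -0.10 ± 0.03. GRAP2 also had unequal levels in the edited clones, where clone 1 had 9.1, 6.87 and 8.4 FPKM and clone 2 had 51.7, 51.2 and 46.1, a log2 fold change of 3.09 for clone 2 over HMC-1.1.

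Genes of leukotriene synthesis were lower in HMC-1.1 where they were called. Of 11 eicosanoid genes tested, 3 fell and 1 rose (36.4% called, beside 17.6% of all genes), while the median was 0.16. ALOX5AP, the 5-lipoxygenase activating protein, was at 19.5, 19 and 20 FPKM against 158, 156 and 144 (-3.04 ± 0.06, adjusted p = 4.5e-17), and LTC4S, leukotriene C4 synthase, at 1.89, 2.05 and 1.88 against 14.6, 11.5 and 12.6 (-2.96 ± 0.21, adjusted p = 2.4e-09). ALOX5 itself was not tested, with at most 0.0367 FPKM on average in either group. TBXAS1, thromboxane synthase, fell (-1.43 ± 0.21, adjusted p = 1.9e-05), and PLA2G4A, the cytosolic phospholipase that frees arachidonic acid, rose (0.77 ± 0.05, adjusted p = 7.8e-10). PTGS1, cyclooxygenase 1, was at -0.17 ± 0.03.

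**Figure D2:**
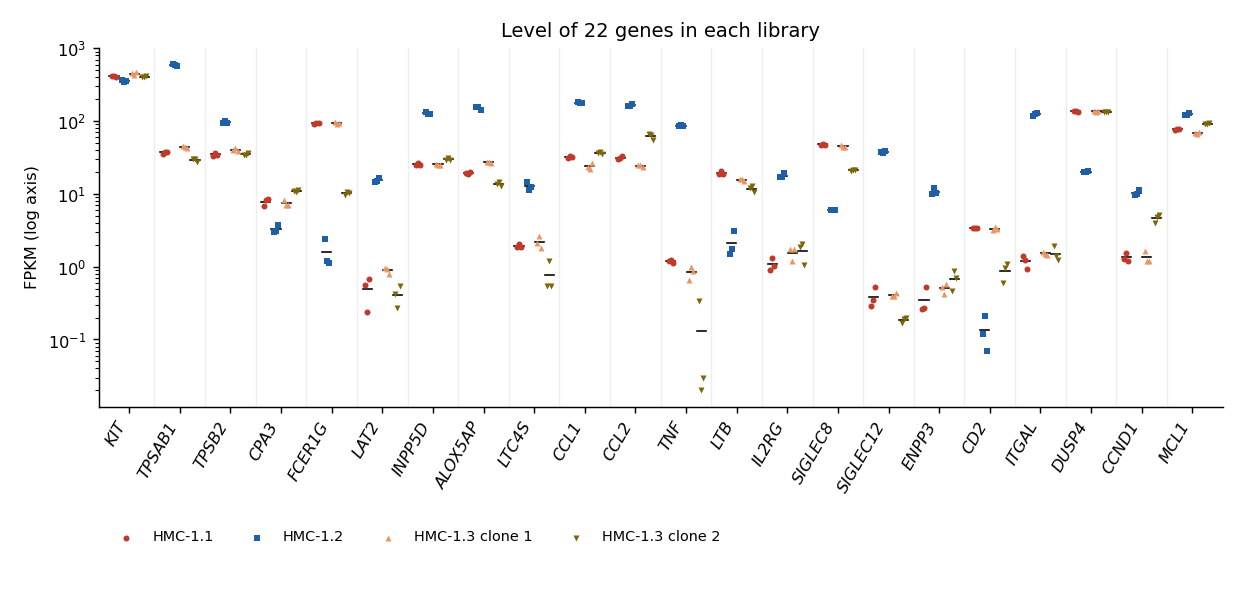
FPKM on a log axis of 22 genes in each of the 12 libraries, with 1 point per library and a black bar at the mean of the 3 libraries of a group (circles HMC-1.1, squares HMC-1.2, triangles pointing up HMC-1.3 clone 1 and pointing down clone 2). TPSAB1, ITGAL and TNF lie far lower in HMC-1.1 than in HMC-1.2, FCER1G and DUSP4 far higher, and KIT at nearly the same level.

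Chemokine genes were lower wherever they were called. Of 17 chemokines on the list, 8 could be tested, 6 of these fell and 0 rose, with a median of -1.71. The share called was 75%, beside 17.6% of all genes. CCL1, a ligand of CCR8, was at 31.5, 32.7 and 32 FPKM against 182, 175 and 175 (-2.56 ± 0.06, adjusted p = 5.6e-16), and CCL2, which attracts monocytes, was at 29.9, 31.6 and 33.4 against 161, 159 and 174 (-2.45 ± 0.07, adjusted p = 1.2e-14). The groups were far apart for both, and the edited clones were also below HMC-1.2, with CCL2 at 24.7, 24.9 and 23.1 FPKM in clone 1 and 67.2, 64.5 and 55.1 in clone 2. CCL3, CCL18, CXCL8 and CXCL16 fell at FPKM levels of about 2 or less, CXCL8 with an adjusted p of 0.046, and CCL3 shares reads with near-identical copies.

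Of 23 cytokines and growth factors, 14 were tested, of which 7 fell and 3 rose, with a median of -0.82. The share called was 71.4%, beside 17.6% of all genes. TNF had 1.2, 1.24 and 1.13 FPKM in HMC-1.1 and 85.4, 88.9 and 86.5 in HMC-1.2, a 75.4-fold difference (-6.24 ± 0.13, adjusted p = 2.2e-16). LTB, lymphotoxin beta, whose gene lies beside TNF, rose from 1.5, 1.75 and 3.05 to 18.5, 20.7 and 18.5 FPKM (3.13 ± 0.16, adjusted p = 4.1e-11). These neighbours therefore moved in opposite directions. CSF1, the growth factor of macrophages, fell from 44.2, 46 and 44.8 to 6.83, 6.53 and 6.71 FPKM (-2.78 ± 0.04, adjusted p = 3.1e-18). LIF, a cytokine of the IL-6 family (-0.90 ± 0.04), HBEGF, a ligand of the EGF receptor (-1.82 ± 0.21), IL6 (-3.03 ± 0.47), IL4 (-1.92 ± 0.49) and PDGFA (-2.60 ± 0.41) also fell, the last 3 at low FPKM. IL18 rose from 26.6, 27.5 and 26.4 to 52.2, 47.5 and 51.1 FPKM (0.84 ± 0.05, adjusted p = 6.6e-10).

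Cytokine receptors fell in 12 of 26 cases tested and rose in 1, beside 7.52% of all genes lower and 10.1% higher, with a median of -0.43. IL2RG, the common gamma chain, was at 0.89, 1.31 and 1.03 FPKM against 17.1, 16.9 and 19.5 (-4.26 ± 0.13, adjusted p = 4.8e-14), and IL2RB, the beta chain, fell with it (-1.15 ± 0.05). With IL2RA above, all 3 chains of the IL-2 receptor were lower. LIFR (-3.08 ± 0.14), IL18RAP (-2.50 ± 0.14), IL10RA (-2.44 ± 0.10) and IL5RA (-2.11 ± 0.07) were lower by over 4-fold. IL1RL1, the IL-33 receptor or ST2, fell from 204, 204 and 209 to 133, 140 and 124 FPKM (-0.75 ± 0.03, adjusted p = 3.1e-12), and its partner IL1RAP fell from 28.2, 27.9 and 31.7 to 8.08, 8.06 and 7.61 (-1.98 ± 0.04, adjusted p = 1.9e-16). IL9R was the receptor that rose, from 8.47, 8.6 and 10.5 to 21.5, 21.7 and 22.3 FPKM (1.46 ± 0.05, adjusted p = 1.7e-13). It lies in a region shared by the X and Y chromosomes, where the table splits the reads between 2 rows, and its row here holds only a part of them. CSF2RB, the beta chain shared by the receptors for IL-3, IL-5 and GM-CSF, was at -0.28 ± 0.03.

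Surface molecules used to describe neoplastic mast cells changed in both directions, with 6 of 24 higher, 7 lower and a median of -0.02. The share called was 54.2%, beside 17.6% of all genes. CD2, an adhesion molecule of T cells that neoplastic mast cells can carry, was at 3.4, 3.4 and 3.39 FPKM in HMC-1.1 and at 0.12, 0.21 and 0.07 in HMC-1.2 (4.57 ± 0.25, adjusted p = 8.1e-11), whereas IL2RA (CD25) was the lower one of this pair of markers. SIGLEC8, an inhibitory receptor of mast cells and eosinophils, rose from 5.95, 6.03 and 5.96 to 47.3, 49.1 and 47.6 FPKM (2.84 ± 0.04, adjusted p = 1.5e-18). CD164, a sialomucin, rose from 239, 236 and 242 to 561, 550 and 555 FPKM (1.17 ± 0.03, adjusted p = 4.5e-16), and CD48, ICAM4 and FAS rose by 0.67 ± 0.04, 0.93 ± 0.05 and 0.66 ± 0.05.

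Among the markers that fell, ENPP3, the activation marker CD203c, was at 0.26, 0.27 and 0.52 FPKM against 10, 11.9 and 10.2 (-4.88 ± 0.16, adjusted p = 9.5e-14). CD69, another activation marker (-2.27 ± 0.12), CXCR4, the receptor for CXCL12 (-3.04 ± 0.24), and CD44, the hyaluronan receptor (-0.86 ± 0.03), fell too. PLAUR, the urokinase receptor or CD87, fell from 45.5, 40.9 and 46.6 to 27.7, 26.2 and 28.4 FPKM (-0.78 ± 0.06, adjusted p = 1.6e-08). Urokinase itself, PLAU, was at 0.45, 0.23 and 0.19 FPKM against 15.5, 14.3 and 14.3 (-5.55 ± 0.17, adjusted p = 3.7e-14), while MMP2, a matrix metalloproteinase, rose (2.59 ± 0.07, adjusted p = 1.3e-14). Of 13 genes of plasminogen activation and matrix proteolysis, 3 fell and 1 rose (30.8% called, beside 17.6% of all genes), and the median was -0.05.

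Of 13 siglecs and inhibitory receptors tested, 6 fell and only 1, SIGLEC8, rose, with a median of -0.26. The share called was 53.8%, beside 17.6% of all genes. SIGLEC12 was at 0.29, 0.35 and 0.52 FPKM against 37.7, 36.9 and 38.3 (-6.74 ± 0.10, adjusted p = 1.6e-18), LAIR1, a collagen receptor, at 5.01, 5.62 and 6.43 against 79.5, 78.3 and 78.7 (-3.65 ± 0.05, adjusted p = 2.4e-18), and PILRA, a receptor for sialylated proteins, at 1.83, 2.13 and 1.88 against 15.8, 15.9 and 15 (-3.66 ± 0.13, adjusted p = 2e-13). SIGLEC8 and SIGLEC12 both lie on chromosome 19 and moved in opposite directions. SIGLEC6, the most abundant of the group, was at 286, 295 and 269 FPKM against 223, 224 and 227 (0.29 ± 0.03).

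Adhesion genes moved in both directions, with 6 of 25 lower, 3 higher (36% called, beside 17.6% of all genes) and a median of -0.07. ITGAL, the alpha chain of the leukocyte integrin LFA-1, was at 1.41, 1.24 and 0.94 FPKM against 119, 127 and 129, a 91.4-fold difference (-6.51 ± 0.05, adjusted p = 1.5e-21). Its beta partner ITGB2 was low in both, at 1.08, 0.77 and 0.67 FPKM against 0.54, 0.81 and 0.82. NCAM1, a neural cell adhesion molecule or CD56, was at 0.07, 0.06 and 0.08 FPKM against 9.31, 7.33 and 7.91 (-6.89 ± 0.14, adjusted p = 1.5e-16). ITGA6 (-2.46 ± 0.44) and L1CAM (-2.21 ± 0.79) fell at under 1 FPKM, and L1CAM was not called when any of 4 libraries was left out (adjusted p = 0.051 to 0.082). The platelet integrin chain ITGA2B, abundant in these cells, was at 0.46 ± 0.03.

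**Figure D3:**
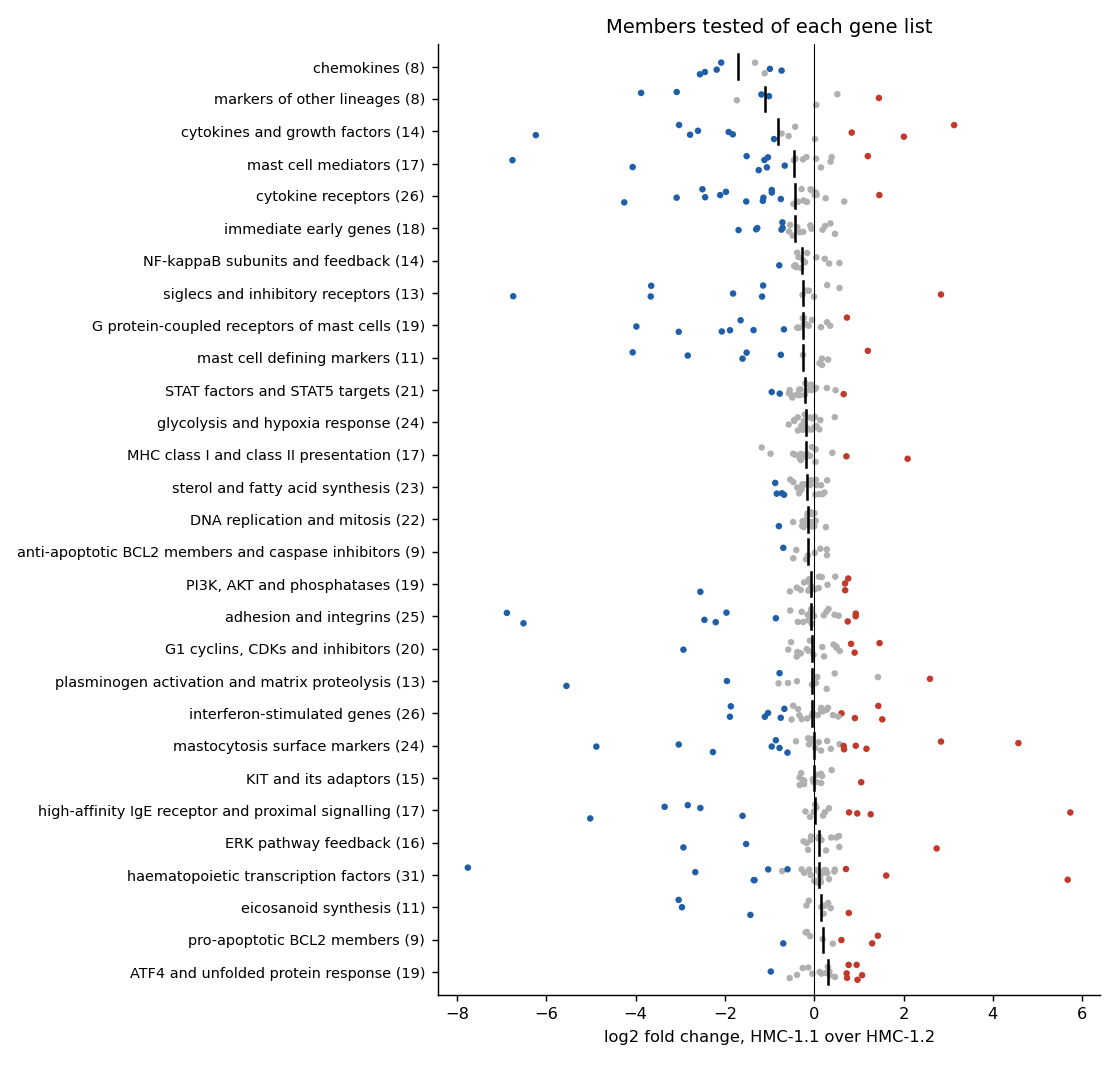
Log2 fold change of HMC-1.1 over HMC-1.2 for the tested members of the gene lists, 1 point per gene (red called higher, blue called lower, grey not called), with a black bar at the median of each list and the number tested in parentheses. Chemokines have the lowest median (-1.71) and the genes of the ATF4 and unfolded protein responses the highest of those shown (0.30).

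The haematopoietic transcription factors that mast cells depend on were at close levels. GATA2 was at 228, 246 and 237 FPKM against 213, 213 and 212 (0.12 ± 0.03), MITF at 21.1, 21.6 and 21.1 against 18, 18.2 and 20.2 (0.17 ± 0.03), and GATA1 at 0.15 ± 0.04. Of 31 such factors, 3 rose and 6 fell (29% called, beside 17.6% of all genes), with a median of 0.10. CEBPA, a factor of granulocyte and monocyte lineages, fell from 29.4, 29.7 and 27.8 to 4.85, 4.61 and 4.65 FPKM (-2.67 ± 0.05, adjusted p = 1.7e-16), and MYB, a factor of progenitor cells, from 120, 116 and 124 to 61, 60.9 and 59.9 (-1.03 ± 0.03, adjusted p = 7.3e-14). GFI1 and its relative GFI1B, both repressors, moved apart (-0.60 ± 0.04 and 0.71 ± 0.05). KLF1, an erythroid factor, rose (1.61 ± 0.21) and IKZF2 fell (-1.34 ± 0.10), both at low FPKM. CEBPE, at about 1 FPKM or less, had a log2 fold change of -1.36 ± 0.43 (adjusted p = 0.014) but was not called without HMC-1.1 replicate 2 or 3 or HMC-1.2 replicate 1 (-1.18 to -1.03, adjusted p = 0.062 to 0.065).

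A pair of further factors was near absence in 1 subline, where a fold can only be bounded. SNAI2 had 0 counts in HMC-1.1 and 71 in HMC-1.2, which is at least 27.9-fold lower against a floor of 3 counts over the group, and BHLHE41 had 1 count in HMC-1.2 and 80 in HMC-1.1, a ratio of 67.8 (95% interval 12.2 to 2676, counting error only). With SNAI2 at this bound, the median of the list was also 0.10. These intervals and bounds take the counts as independent fragments.

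Of 26 markers of other lineages, 8 could be tested, of which 62.5% were called, beside 17.6% of all genes. PRG2, the eosinophil major basic protein, was at 26.6, 25.5 and 29.1 FPKM against 225, 219 and 218 (-3.08 ± 0.06, adjusted p = 1.8e-16), CLC, the Charcot-Leyden crystal protein, at 88.7, 78.6 and 87.4 against 190, 180 and 176 (-1.19 ± 0.06, adjusted p = 1.2e-11), and EPX, eosinophil peroxidase, was at under 1 FPKM in both (-3.88 ± 0.45, adjusted p = 1.4e-06). These and COL1A1 fell, HBG2, a fetal globin, rose, and the median of the 8 was -1.1. HBG2 rested on overlapping values of 6.36, 2.66 and 8.05 against 2.04, 0.46 and 3.43 FPKM, and was not called without HMC-1.1 replicate 1 or 3 or HMC-1.2 replicate 1 or 2 (1.01 to 1.48, adjusted p = 0.058 to 0.12).

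Among genes of cell survival, MCL1, which protects from apoptosis, was the 1 gene of 9 tested anti-apoptotic genes that passed (11.1%, beside 17.6% of all genes), at 76, 78.8 and 77 FPKM against 122, 122 and 128 (-0.69 ± 0.03, adjusted p = 1e-12). BCL2L1, the most abundant of the family, was at 0.28 ± 0.03 and BCL2 at -0.14 ± 0.05. Of 9 pro-apoptotic members, 3 rose and 1 fell (44.4% called), with a median of 0.19. BBC3 (PUMA) rose from 20.4, 19.9 and 18.3 to 49.6, 46.6 and 49 FPKM (1.297 ± 0.05, adjusted p = 5e-13), BMF rose (1.43 ± 0.11), PMAIP1 (NOXA) rose (0.61 ± 0.04) and BAK1 fell (-0.69 ± 0.07). BCL2L11 (BIM) was at 23.6, 22.1 and 24.5 against 17.1, 15.4 and 18.3 FPKM, a difference without overlap but under the fold threshold (0.41 ± 0.04, adjusted p = 2.8e-07).

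Most proliferation genes stayed under the fold threshold. Of 22 genes of DNA replication and mitosis, 0 rose and 1 fell (4.55% called), with a median of -0.14. The gene that fell was RRM2, a subunit of ribonucleotide reductase (-0.79 ± 0.04, adjusted p = 1.9e-11), and MKI67 had overlapping values. By adjusted p under 0.05 alone, 12 of the 22 were lower and 1 was higher. Of all 15944 genes tested, 4231 were lower and 4331 higher by this measure. Among G1 regulators, 3 of 20 rose and CCND1 fell (20% called, beside 17.6% of all genes), with a median of -0.06. CDK4, a partner of cyclin D, rose from 274, 270 and 256 to 522, 485 and 518 FPKM (0.90 ± 0.04, adjusted p = 7e-12), CDK6 rose at low level (1.46 ± 0.10), and the inhibitor CDKN1B (p27) rose from 23.1, 23.8 and 23 to 43.4, 42.2 and 42.4 (0.82 ± 0.03, adjusted p = 2.2e-12). MYC was at 0.50 ± 0.03.

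Of 19 genes of the ATF4 and unfolded protein responses, 6 rose and 1 fell, with a median of 0.30. The share called was 36.8%, beside 17.6% of all genes. ATF4 itself was not called, nor were PSAT1, SHMT2, MTHFD2 and SLC7A5 of the same list. The genes that rose are known targets of ATF4, which is made under amino acid shortage: TRIB3 (1.07 ± 0.05), SLC7A11, a cystine transporter (0.97 ± 0.08), DDIT3 or CHOP (0.95 ± 0.08), ASNS, asparagine synthetase, from 204, 205 and 195 to 368, 353 and 364 FPKM (0.77 ± 0.04, adjusted p = 1.3e-11), DDIT4 (0.73 ± 0.04) and SESN2 (0.72 ± 0.04). HSPA5, the main chaperone of the endoplasmic reticulum, was the gene that fell, from 264, 256 and 260 to 137, 137 and 134 FPKM (-0.97 ± 0.03, adjusted p = 3.1e-14). TRIB3 was also unequal between the clones, at 171, 173 and 168 FPKM in clone 1 and 40.2, 40.7 and 41.7 in clone 2, against 92.3, 80.7 and 83 in HMC-1.1 and 39.8, 40.9 and 38 in HMC-1.2.

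In the sterol and fatty acid list, 4 of 23 fell and 0 rose (17.4% called, beside 17.6% of all genes), with a median of -0.16. Those that fell included FADS2, a fatty acid desaturase (-0.88 ± 0.04), INSIG1 (-0.84 ± 0.04) and SREBF1 (-0.68 ± 0.04). Of 24 genes of glycolysis and the hypoxia response, 0 were called, with a median of -0.19. By edgeR, 18 had an adjusted p under 0.05 and 19 an unadjusted one. Among the 18, 15 were below 0 on the log2 scale. Of all 15944 genes tested, 8562 had such an adjusted p, 4231 of them below 0. LDHA was at 777, 799 and 814 FPKM against 994, 969 and 954 (-0.29 ± 0.03).

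Interferon-stimulated genes did not move as a group, with 4 of 26 higher and 6 lower (38.5% called, median -0.04). IFIT2 (1.52 ± 0.06) and IFIT1 (0.91 ± 0.07) rose, whereas IFI27 (-1.11 ± 0.15) and, at under 1 FPKM, MX2 (-1.89 ± 0.31) and GBP2 (-1.87 ± 0.29) fell. The 17 tested genes of antigen presentation had a median of -0.18. By adjusted p under 0.05 alone, 9 were lower and 3 higher, beside 4231 lower and 4331 higher of all genes tested. With the fold threshold, 2 rose and 0 fell, a share of 11.8% called beside 17.6% of all genes. They were HLA-DPB1, a class II gene, at 24, 27.8 and 23.4 FPKM against 5.56, 4.43 and 5.39 (2.09 ± 0.07, adjusted p = 8e-14), and HLA-DMA, which serves class II loading (0.72 ± 0.10). HLA-DRA and CD74 were under 1 FPKM in all 6 libraries, and the class I genes HLA-B and HLA-C were at -0.33 and -0.30. Reads of HLA genes can be shared among them.

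Of the G protein-coupled receptors of mast cells, 19 of 30 could be tested, 7 fell and 1 rose, with a median of -0.26. The share called was 42.1%, beside 17.6% of all genes. C3AR1, the receptor for complement C3a, rose from 95.2, 94.8 and 97.6 to 167, 160 and 167 FPKM (0.73 ± 0.03, adjusted p = 4.1e-12), and C5AR1, the receptor for C5a, fell at about 1 FPKM (-1.89 ± 0.20, adjusted p = 6e-07). ADORA2A, an adenosine receptor, fell from 24.9, 24.4 and 22.8 to 9.42, 10.2 and 8.99 FPKM (-1.36 ± 0.05, adjusted p = 2.1e-13). PTGER4, a receptor for prostaglandin E2, fell (-2.07 ± 0.17), and PTGER3 had 3 counts in HMC-1.1 and 45 in HMC-1.2, a ratio of 17.7 (95% interval 6.06 to 85.9). The number called lower ran from 3 to 8 across the alternatives.

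Several genes outside the lists were close to absent in 1 subline. DNAJA4, a co-chaperone of HSP70, had 0 counts in each HMC-1.1 library and 600, 517 and 474 in HMC-1.2, at least 626-fold lower against a floor of 3 counts over the group. ZNF542 had 0 counts in each HMC-1.1 library and 286, 302 and 226 in HMC-1.2 (at least 320-fold lower), and ZNF100, another zinc finger gene, had 1 count over HMC-1.1 and 546 over HMC-1.2, a ratio of 645 (95% interval 116 to 25464). CCDC120 had 2 counts over HMC-1.1 and 555 over HMC-1.2, a ratio of 328 (90.7 to 2706). These 4 genes were also at 0.04 FPKM or less in each library of both clones. KIF17, a kinesin motor, was at 0.43, 0.2 and 0.36 FPKM against 30.9, 31.6 and 28.9 (-6.82 ± 0.11, adjusted p = 7e-18). Unlike these 4, KIF17 was expressed in clone 2 (25.9, 25.6 and 26.4 FPKM) but not in clone 1 (0.23, 0.33 and 0.4).

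In the other direction, PLEKHB1, a membrane protein, had 551, 563 and 602 counts in HMC-1.1 and 0, 2 and 0 in HMC-1.2, a ratio of 727 (95% interval 201 to 6000). MPZL2, an adhesion protein, was at 40.1, 40.6 and 40.4 FPKM against 0.05, 0.12 and 0.09 (9.18 ± 0.10, adjusted p = 5.6e-20). ROR2, a receptor for WNT5A, was at 5.8, 4.29 and 6.29 against 0.11, 0.07 and 0.11 (5.54 ± 0.13, adjusted p = 1.5e-15), and ARNT2, a transcription factor, at 32.8, 33 and 30.7 against 1.37, 1.64 and 1.19 (4.29 ± 0.06, adjusted p = 5.2e-19). DAB2IP, an inhibitor of RAS (4.92 ± 0.15), PTPN13, a phosphatase (4.17 ± 0.10), HEPH, a ferroxidase (4.01 ± 0.14), RASGRP4, an activator of RAS in mast cells (3.93 ± 0.13), and SAMD12 (4.22 ± 0.21) completed the largest rises. All of these were expressed in both clones, RASGRP4 at 1.17, 1.17 and 1.09 FPKM in clone 2 and 6.77, 5.61 and 5.99 in clone 1.

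By absolute FPKM, the largest gains were COTL1 and CAP1, both binders of actin, CD164, GSTP1, a glutathione transferase, and CALB2, calretinin. CAP1 rose from 760, 761 and 739 to 1276, 1258 and 1279 FPKM (0.71 ± 0.03), and GSTP1 from 296, 306 and 281 to 740, 693 and 702 (1.19 ± 0.05). CALB2 passed the fold threshold narrowly (0.61 ± 0.04) and was under it without HMC-1.2 replicate 3 (0.58). The largest losses were RACK1, a protein of the ribosome, TPSAB1, LGALS1, galectin-1 (-0.85 ± 0.06), and KRT19, a keratin (-1.36 ± 0.03). RACK1 fell from 2038, 2025 and 1928 to 1029, 991 and 1007 FPKM (-1.09 ± 0.04, adjusted p = 5.9e-14). The mitochondrial gene MT-ATP8 also met the rule by its counts (-0.61 ± 0.12), but its FPKM values overlapped between the groups, it overlaps MT-ATP6, and it was under the fold threshold without HMC-1.1 replicate 1 (-0.51), HMC-1.1 replicate 2 (-0.58) or HMC-1.2 replicate 2 (-0.51).

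The position of the genes on the chromosomes added a further pattern. Over whole chromosomes the median log2 fold change stayed between -0.06 (chromosome 21) and 0.08 (X), and the share of genes called was highest on chromosome 5 (24.4% of 667) and X (23.8% of 564). Of 278 windows of 10 Mb with at least 15 tested genes, 13 had an absolute median of at least 0.3. Those of chromosome 5 were the only windows among the 13 with a negative median: at 170 to 180 Mb 44 of 84 genes fell and 11 rose (median -0.70), and at 180 to 190 Mb 16 of 18 fell and 0 rose (median -1.05). The highest positive medians were on chromosome 12, at 70 to 80 Mb (0.56) and 60 to 70 Mb (0.52). Chromosome 3 at 70 to 80 Mb (0.49, 16 genes) and chromosome 21 at 10 to 20 Mb (0.46, 20 genes) came close. The rest, on chromosomes 6, 8, 13, 20 and X, had medians of 0.30 to 0.37.

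On chromosome 5 the shift covered the end of the long arm. From FAF2 to the last tested gene, at chr5:176447628-181324685 (GRCh38), 57 of 70 tested genes fell and 3 rose, with a median of -1.001 and quartiles of -1.19 and -0.81. The 40 tested genes just before FAF2 had a median of -0.03, with 5 lower and 8 higher. The borders were chosen after the values had been seen. RACK1, one of the largest losses in FPKM, and LTC4S lie in this stretch, RACK1 at -1.09, near the median of its neighbours, and LTC4S at -2.96. Over the same genes the medians of clone 1 and clone 2 against HMC-1.1 were 0.02 and -0.03, close to 0.

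Chromosome 12 showed a smaller shift upward. From USP15 to PPP1R12A, chr12:62260338-79935460, 22 of 65 genes rose and 3 fell, with a median of 0.55 and 57 of 65 above 0. MDM2, a ubiquitin ligase, lies in this stretch and was at 40.4, 45.4 and 40.9 FPKM against 36.2, 23.6 and 28.3 (0.59 ± 0.04, adjusted p = 9e-10), close to the median of the stretch. The clones had medians of -0.02 and -0.01 against HMC-1.1. The number of gene copies in these cells was not measured here.

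**Figure D4:**
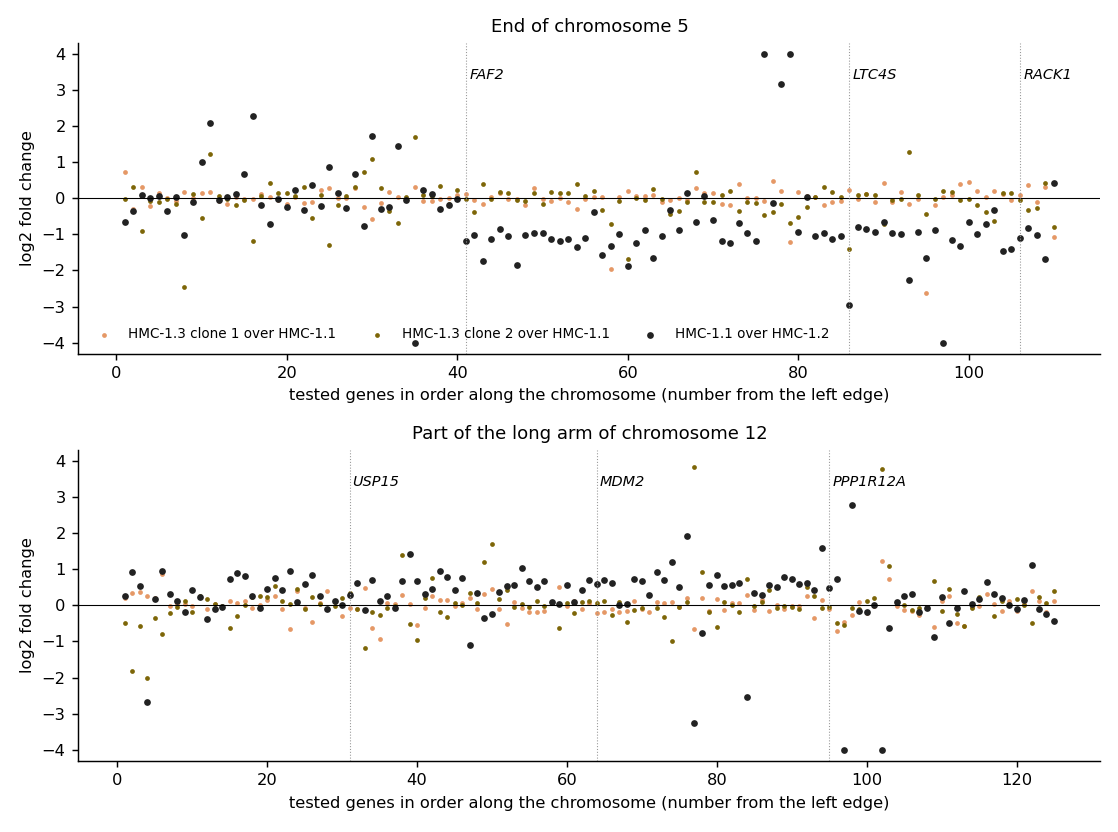
Log2 fold change (vertical axis, values beyond 4 drawn at 4) of tested genes in order along the end of chromosome 5 (top) and part of the long arm of chromosome 12 (bottom), with HMC-1.1 over HMC-1.2 in black and each HMC-1.3 clone over HMC-1.1 in orange and olive; dotted lines mark named genes. From FAF2 on, the black points lie around -1.001, and between USP15 and PPP1R12A around 0.55, while the clones lie around 0.

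Of the 116 named genes that were called between HMC-1.1 and HMC-1.2, the values of the edited clones against HMC-1.1 were tested in the same fit. Clone 1 passed against HMC-1.1 for 3 of these 116 and clone 2 for 44, beside 1.01% and 8.19% of all genes. Most of the 116 were chosen for large differences between HMC-1.1 and HMC-1.2, and the comparisons share the HMC-1.1 libraries. Their shares are therefore not comparable with those of all genes, and no conclusion is drawn from them. Clone 1 had levels near those of HMC-1.1 for TPSAB1 (45.2, 44.4 and 42.9 FPKM), FCER1G (97.8, 91.1 and 94.2) and TNF (0.66, 0.99 and 0.88). In clone 2, FCER1G was at 9.81, 10.7 and 10.3 FPKM, a log2 fold change of -3.19 against HMC-1.1, and TNF at 0.34, 0.02 and 0.03 FPKM (-3.28).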

How the data were processed

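Stranded libraries of polyadenylated RNA from 12 samples of 4 groups were analysed, 3 wells per group. As the labels and methods state, the authors used cutadapt (2.10) for trimming, STAR (2.5.3) for alignment to hg38 with a Gencode annotation and RSEM (1.3.0) for gene quantification. The deposited expected counts per gene are raw estimates, of which 7.39% were not whole, and were rounded. The deposited FPKM values, as the authors computed them with RSEM, are scaled for transcript length and depth and are given as levels only. RSEM divides reads shared by similar or overlapping genes, so values of such genes are uncertain, and FPKM and count ratios can differ where transcript lengths do.

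Expected counts were fitted with edgeR (4.0.16, R 4.3.3; quasi-likelihood test, TMM scaling, default filter on low counts), with all 12 libraries sharing 1 estimate of spread and group as the only term. Of 58381 genes, 15944 were tested, and genes were called at a Benjamini-Hochberg adjusted p under 0.05 and a fold over 1.5. Standard errors are those of the fitted log2 fold change. The wells were plated in triplicate, so for genes with many counts precision rests on the spread between wells (common biological coefficient of variation 0.0442) more than on the depth of 29225900 to 43181402 counts. For genes with few counts it also rests on the number of counts. Counting intervals are exact 95% Poisson intervals of the lower count. Positions and biotypes came from Gencode 44, in which 98.9% of identifiers had a gene.

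The named genes were KIT, STAT5A, STAT5B, MCL1 and BCL2L11, the 10 largest rises and falls with at least 5 CPM in the higher group, the 5 largest gains and losses in mean FPKM, up to 4 called members of each list, and windows of 10 Mb. Further list members and the borders of chromosome stretches were chosen after their values were seen. The comparison and the gene lists were chosen with earlier results of these data known. Alternatives were other scalings (RLE, totals only), DESeq2 (1.42.0), limma (3.58.1) on log2(FPKM + 1) or log2(FPKM + 0.1), other filters, fewer libraries, a replicate block, a term for resent libraries and a test against the fold threshold. The scripts were tested on simulated data. Some genes named by the rule, and 1 list, are not reported here.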

Additional observations from a re-analysis of the deposited data

How the results depend on the processing

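Of the alternatives, 3 moved the count of 2803 called genes by over 1.5 times. A test against the 1.5-fold threshold itself (edgeR's glmTreat) called 1618 genes, 855 higher and 763 lower in HMC-1.1. The limma test on log2(FPKM + 1) called 1513 (884 higher, 629 lower), and without the filter on low values 1510 (879 higher, 631 lower), and the added 1 shrinks the fold of genes with low FPKM. With RLE scaling 2795 genes were called, with library totals only 2854, with DESeq2 2718, without a filter on low counts 3113 and with a term for resent libraries 2740. The share of calls that were higher in HMC-1.1 ran from 52.8% to 61.1%, beside 57.2%. Leaving out 1 library at a time gave 2680 to 2802 calls, 1494 to 1605 higher and 1168 to 1227 lower. Of 120 named genes, 98 kept direction and call under all 18 alternatives, and no named gene changed direction. Calls of STAT4, HBG2, L1CAM, KLF4, CEBPE, PIK3R2, CALB2 and MT-ATP8 were lost without 1 library, as given beside each.

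No pairing of the samples by replicate number was established. The deviations of same-numbered HMC-1.1 and HMC-1.2 libraries correlated at 0.0861, -0.0345 and 0.0713, and those of unlike numbers at -0.11 to 0.0415. With 3 libraries in a group, these values cannot settle whether the numbers pair the wells. With the replicate number as a block, 2799 genes were called, 1604 higher and 1195 lower.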

Other observations

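Zinc finger genes of the ZNF series, most of which code for transcriptional repressors and many of which lie in clusters on chromosome 19, were examined as a group after their values had been seen. On chromosome 19, 51 of 221 tested ZNF genes rose in HMC-1.1 (23.1%) and 5 fell (2.26%), with a median log2 fold change of 0.33, and 184 of 221 were above 0. On other chromosomes 26 of 225 rose and 6 fell (median 0.15), and of the 998 other genes of chromosome 19, 75 rose and 83 fell (median -0.06). ZNF493 (2.67), ZNF730 (2.51) and ZNF43 (1.79) were among those that rose, whereas ZNF542 and ZNF100, also on chromosome 19, were at or near 0 counts in HMC-1.1. Members of these clusters resemble each other, so that the division of reads between them is uncertain.

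Long non-coding RNA genes were called higher in HMC-1.1 in 256 of 1754 cases (14.6%) and lower in 134 (7.64%), with a median of 0.10. Of 13011 protein-coding genes, 1231 were higher (9.46%) and 979 lower (7.52%). The share of genes called was larger at low CPM, and these classes were not matched for level.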
